A study of Mus musculus with 10 samples.

Results

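The matrix that cumulus cells lay down around the oocyte at ovulation is described here through 8 genes, Has2, Tnfaip6, Ptx3, Vcan, Cd44, Adamts1, Adamts4 and Adamts9, of the 24306 genes in the count table. They were chosen by name for what their products do, with earlier results of these data known. Of them, 5 are matrix genes and 3 are proteases that cut versican. All 8 had reads in all 10 libraries and all 8 were tested in each comparison. RNA-seq was made from whole ovaries at 6 weeks of age, in mice of a mixed background (C57BL/6 and 129) that were housed conventionally and given no treatment. The Rar mutants (n = 3) were Rara f/f, carried Sf1-Cre and had both Rarb (f/f) and Rarg (f/f) floxed as well, so that all retinoic acid receptor genes were targeted at once, and they were Dmrt1 +/+. The Dmrt1 het Rar mutants (n = 2) carried the same floxed Rar alleles and Sf1-Cre, with 1 floxed Dmrt1 allele in addition (Dmrt1 fl/+). The controls (n = 5) had the same floxed Rar alleles, were Dmrt1 +/+ and lacked the Cre. Sf1-Cre acts in the somatic cells of the gonad, so germ cells, and other cells in which the promoter is not used, keep intact alleles. The question asked is whether retinoic acid signalling in the somatic ovary is needed for its development and function.

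When the surge of luteinising hormone reaches a ripe follicle, granulosa cells release EGF-like factors, and the cumulus cells around the oocyte answer by making a sticky gel that swells and carries the oocyte out. The gel is hyaluronan, made by the hyaluronan synthase Has2, and it is held together by TSG-6 (the product of Tnfaip6), which moves heavy chains of inter-alpha-trypsin inhibitor onto hyaluronan, and by pentraxin 3 (Ptx3), which cross-links those chains. Versican (Vcan) binds hyaluronan through its link domain, CD44 is the hyaluronan receptor on the cell surface, and the secreted proteases ADAMTS1, ADAMTS4 and ADAMTS9 cut versican and other proteoglycans.

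The 250 bases upstream of the RefSeq gene start (GRCm38.p6) are shown for 3 members, because Tnfaip6 and Ptx3 stood highest in one mutant ovary and Adamts1 in another. Capitals mark matches to the motifs searched, on either strand.
Tnfaip6, chr2:52037863-52038112, plus strand: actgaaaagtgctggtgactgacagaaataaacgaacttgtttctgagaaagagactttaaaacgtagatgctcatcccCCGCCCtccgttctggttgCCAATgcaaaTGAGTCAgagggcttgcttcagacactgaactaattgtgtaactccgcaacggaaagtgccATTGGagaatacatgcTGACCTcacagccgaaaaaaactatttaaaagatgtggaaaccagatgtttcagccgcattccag
Ptx3, chr3:66219637-66219886, plus strand: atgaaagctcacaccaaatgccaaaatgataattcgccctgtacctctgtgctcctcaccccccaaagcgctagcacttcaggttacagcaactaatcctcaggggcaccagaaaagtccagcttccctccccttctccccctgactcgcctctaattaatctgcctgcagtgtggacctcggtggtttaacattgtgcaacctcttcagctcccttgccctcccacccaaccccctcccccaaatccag
Adamts1, chr16:85803114-85803363, minus strand: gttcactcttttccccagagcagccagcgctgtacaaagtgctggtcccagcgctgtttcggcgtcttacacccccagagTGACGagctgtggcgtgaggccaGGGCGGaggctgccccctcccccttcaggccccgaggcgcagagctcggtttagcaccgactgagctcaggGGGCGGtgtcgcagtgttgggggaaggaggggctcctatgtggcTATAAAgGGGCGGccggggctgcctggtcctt
Of the 8 members, 6 matched an entry in the RefSeq promoter table, and shares are over its 32851 promoters. The AP-1 motif TGANTCA was found upstream of Tnfaip6 among these 6 members, 142 to 136 bases before the start, and occurs in 6.75% of promoters. The nuclear receptor site AGGTCA, also part of the longer motif CAAGGTCA, was matched at 65 to 60 bases upstream of Tnfaip6 on the minus strand and occurs in 14.0% of promoters. The GENCODE start of Tnfaip6, 52038009, lies inside the window shown. The AGGTCA match therefore falls within the GENCODE gene, while the AP-1 match lies before that start. The CRE core TGACG, which is contained in the full CRE TGACGTCA, was found upstream of Adamts1 and Adamts9 and occurs in 17.8% of promoters. The full CRE was matched in 0 of the 6, against 1.55% of promoters, and CAAGGTCA in 0 of the 6, against 1.33%. The GC box GGGCGG was matched in 4 of the 6 members and in 32.7% of promoters, and 3 of its copies lie upstream of Adamts1. The TATA box TATAAA was matched 32 to 27 bases upstream of Adamts1 and occurs in 12.4% of promoters. The CCAAT box was matched in 2 of the 6 members, Tnfaip6 and Vcan, and in 33.8% of promoters. No match was found in the 6 members for the RUNX motif TGTGGT, present in 14.0% of promoters, or for the DR5 retinoic acid response element, present in 0.262%. The Ptx3 window held none of the motifs searched. A match here is a match of letters only.

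In GRCm38 with GENCODE M21, Has2 (ENSMUSG00000022367) lies on chromosome 15 from 56665627 to 56694539 and Tnfaip6 (ENSMUSG00000053475) on chromosome 2 from 52038009 to 52056686. Ptx3 (ENSMUSG00000027832) lies on chromosome 3 from 66219910 to 66225805. Vcan (ENSMUSG00000021614) lies on chromosome 13 from 89655312 to 89742509 and Cd44 (ENSMUSG00000005087) on chromosome 2 from 102811141 to 102901665. Of the proteases, Adamts1 (ENSMUSG00000022893) lies on chromosome 16 from 85793827 to 85803113. Adamts4 (ENSMUSG00000006403) lies on chromosome 1 from 171250421 to 171260637, and Adamts9 (ENSMUSG00000030022) on chromosome 6 from 92772699 to 92943492. Of the 8 loci, 6 overlap a gene on the opposite strand, and the strand setting of the counting is not given in the sources used here, so that reads of such a pair cannot be told apart if strand was ignored. Adamts9 has 3 such partners. A730049H05Rik had 15.4, 113 and 302 CPM in Rar mutants 1, 2 and 3, against 6.14 to 12.2 CPM in controls, and so was high in the same 2 mutants as Adamts9. 9530026P05Rik did not follow it, with 6.98, 2.32 and 3.88 CPM in Rar mutants 1, 2 and 3, against 2.26 to 5.74 CPM in controls, and Gm15737 was at or under 0.252 CPM in all libraries. The Vcan partner Gm4117 had 4.70, 1.37 and 1.79 CPM in Rar mutants 1, 2 and 3, against 1.35 to 3.50 CPM in controls.

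The libraries held 21064856 to 25920131 counts. An observed count of 0 still allows a true level of up to about 3 counts. That level corresponds to 0.116 to 0.142 CPM, the counts scaled to a common library size. Nothing in the labels says that libraries of a group come from separate animals, so p-values measure only the spread between these samples. The sample titles hold a number whose meaning is not stated. It is under 7800 for Rar mutant 1, Dmrt1 het Rar mutants 1 and 2 and control 1. Of the targeted genes, Rarg had 15.2 to 19.3 CPM in Rar mutants, 20.4 and 22.1 CPM in Dmrt1 het Rar mutants and 24.1 to 32.4 CPM in controls, with no overlap, while Rara (20.8 to 30.8 CPM in Rar mutants, 19.9 to 36.6 CPM in controls) and Rarb overlapped. Whole-gene counts do not show whether the floxed exons were lost. Dmrt1 had no count in 9 of the 10 libraries. In RNA from whole ovaries, more cells of a type and more RNA per cell cannot be told apart. The sample details used here give age but not when each ovary was taken relative to the surge of luteinising hormone. The part of that timing in the members' values was not tested.

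Per transcript length, control ovaries expressed versican the most of the 8 genes and the synthase Has2 the least. The control medians were 8.32 FPKM for Vcan (range 7.08 to 36.4), 4.90 FPKM for Adamts1 (3.87 to 9.91) and 2.14 FPKM for Adamts9 (1.63 to 3.75). Cd44 had a control median of 1.72 FPKM (1.52 to 3.62), Ptx3 1.29 (0.971 to 1.995) and Adamts4 0.720 (0.605 to 1.17). Tnfaip6 had a control median of 0.355 FPKM (0.257 to 1.59) and Has2 0.085 FPKM (0.032 to 0.113). Neighbours in this order overlapped between libraries, apart from Adamts1 over Adamts9 and Tnfaip6 over Has2, whose ranges did not meet. The order differed in the Rar mutants. In Rar mutant 3, Vcan reached 127 FPKM and Tnfaip6 115 FPKM, followed by Adamts1 at 32.1 FPKM, Ptx3 at 28.45 FPKM, Adamts9 at 10.9 FPKM and Adamts4 at 9.33 FPKM. In Rar mutant 2, Adamts1 stood first at 116 FPKM and Vcan followed at 28.95 FPKM, while Tnfaip6 had 3.14 FPKM and Ptx3 0.826 FPKM.

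Against controls, the 3 Rar mutants had positive log2 fold changes for all 8 genes, but the high values lay in 2 ovaries. Rar mutant 3 held the highest value of 7 members and Rar mutant 2 that of the eighth, Adamts1, while Rar mutant 1 was close to the controls for most. None of the 8 passed edgeR's quasi-likelihood test at an adjusted p of 0.05, in a comparison that called 2 of 20570 genes (0.00972%), both higher. All 8 had an unadjusted p under 0.05 with a positive fold change in edgeR, against 5.61% of all genes. Earlier results of these data were known when the members and lists were chosen, so such shares are description and not independent support. The median log2 fold change was 2.68 over the members and -0.02 over all genes tested.

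**Figure D1:**
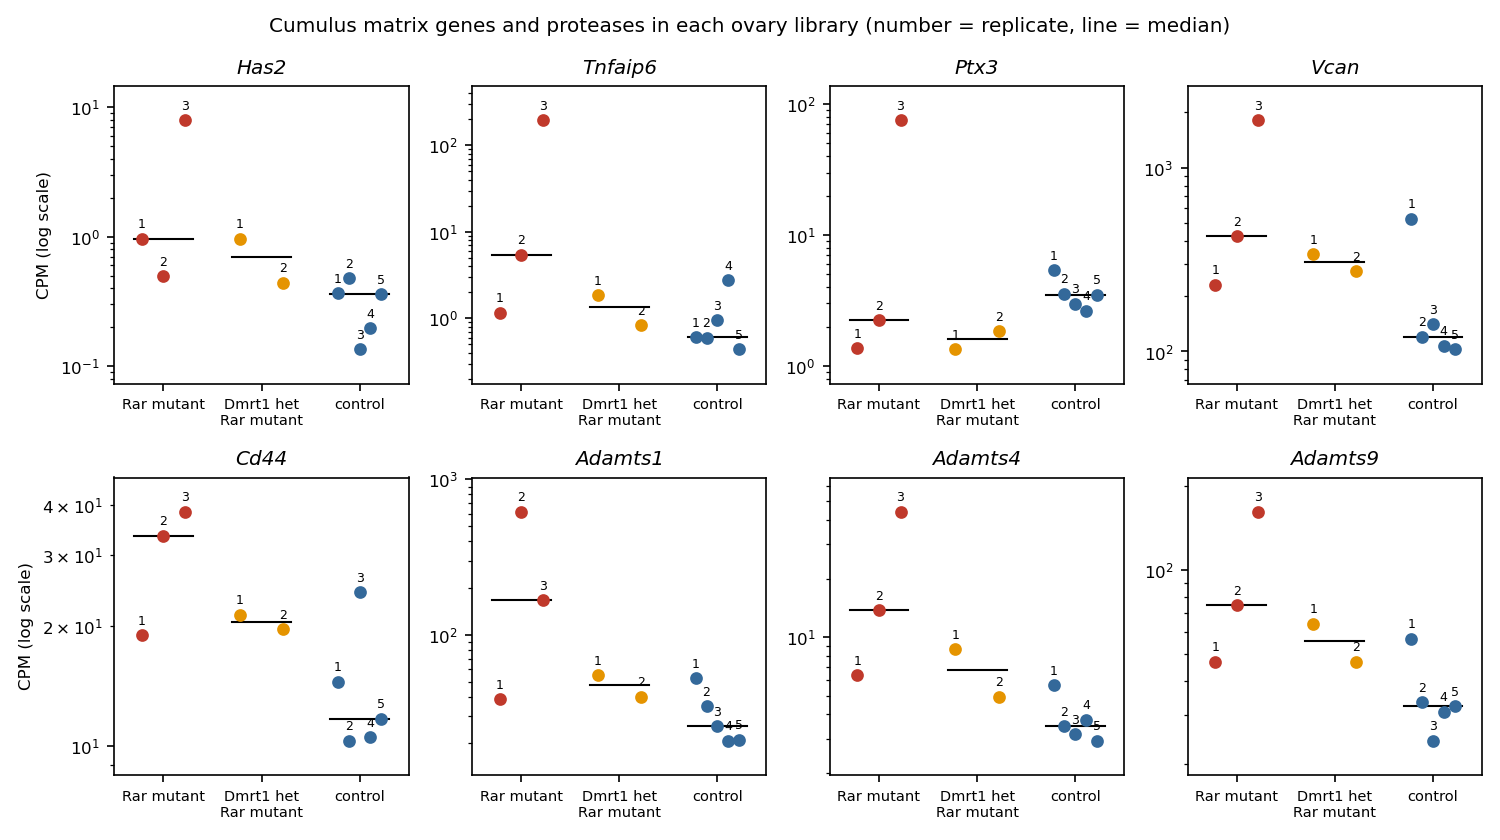
CPM on a log axis for each of the 8 genes, with a point for each library, its replicate number beside it and a line at the group median, and the groups from left to right as Rar mutant, Dmrt1 het Rar mutant and control. Rar mutant 3 is the highest point for 7 genes, at 194 CPM for Tnfaip6, and Rar mutant 2 is the highest for Adamts1, at 619 CPM.

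Has2, the synthase that makes the hyaluronan of the gel, had 0.963, 0.497 and 7.90 CPM in Rar mutants 1, 2 and 3, and 0.366, 0.479, 0.135, 0.197 and 0.361 CPM in controls 1 to 5. These stand for 24, 12 and 185 counts in the Rar mutants and for 3 to 12 counts in the controls. The groups did not overlap, though Rar mutant 2 exceeded control 2 only narrowly. Control 3, at 3 counts, sits at the level that an observed count of 0 still allows. Has2 averaged 3.12 ± 4.14 CPM in Rar mutants and 0.308 ± 0.139 CPM in controls (SD, n = 3 and 5), a difference that edgeR put at 3.31 on the log2 scale (SE 0.79, adjusted p = 0.157). Without Rar mutant 3 that log2 fold change was 1.20.

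Tnfaip6 had 1.16, 5.42 and 194 CPM in Rar mutants 1, 2 and 3, against 0.610, 0.598, 0.948, 2.76 and 0.441 CPM in controls 1 to 5. Rar mutants 2 and 3 lay above all controls and Rar mutant 1 among them, so the groups overlapped. Rar mutant 3 alone held 93.0% of the Tnfaip6 CPM summed over the 10 libraries. The mean was 67.0 ± 110 CPM in Rar mutants and 1.07 ± 0.964 CPM in controls, a difference that edgeR put at 5.96 on the log2 scale (SE 1.31, adjusted p = 0.123) and at 1.59 without Rar mutant 3.

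Ptx3, whose product cross-links the heavy chains on hyaluronan, had 1.36, 2.24 and 75.1 CPM in Rar mutants 1, 2 and 3. Controls 1 to 5 had 5.37, 3.55, 2.98, 2.65 and 3.49 CPM. Rar mutants 1 and 2 both lay below every control, and Rar mutant 3 lay far above them all. The fitted log2 difference of 2.86 (SE 0.97, adjusted p = 0.348 by edgeR) therefore rested on 1 ovary, and without it the value was -1.03 (adjusted p = 0.539). Ptx3 averaged 26.2 ± 42.3 CPM in Rar mutants and 3.61 ± 1.05 CPM in controls.

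Versican, the large proteoglycan of the gel, had 230, 422 and 1811 CPM in Rar mutants 1, 2 and 3, against 528, 121, 140, 107 and 103 CPM in controls 1 to 5. Rar mutant 3 exceeded all controls, and control 1 exceeded Rar mutants 1 and 2. The log2 fold change was 2.03 (SE 0.69, adjusted p = 0.348 by edgeR). It came to 0.68 without Rar mutant 3 and to 2.80 without control 1.

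Cd44, the receptor, varied within the narrowest range of the 8. It had 18.9, 33.6 and 38.5 CPM in Rar mutants 1, 2 and 3, against 14.5, 10.3, 24.3, 10.5 and 11.7 CPM in controls 1 to 5. Rar mutants 2 and 3 lay above all controls, and Rar mutant 1 lay below control 3. Its mean was 30.3 ± 10.2 CPM in Rar mutants and 14.3 ± 5.84 CPM in controls, a difference that edgeR put at 1.08 on the log2 scale (SE 0.31, adjusted p = 0.240) and at 0.85 without Rar mutant 3.

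Of the 3 proteases, Adamts1 stood apart in its pattern. It had 38.5, 619 and 168 CPM in Rar mutants 1, 2 and 3, against 52.7, 34.9, 25.8, 20.8 and 21.2 CPM in controls 1 to 5. Rar mutant 2 was the highest library and held 57.5% of the Adamts1 CPM summed over the 10 libraries, Rar mutant 3 came next, and Rar mutant 1 lay below control 1. The fitted log2 difference of 3.14 (SE 0.65, adjusted p = 0.107 by edgeR) came to 1.73 without Rar mutant 2 and to 3.37 without Rar mutant 3.

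Adamts4 had 6.38, 13.8 and 44.2 CPM in Rar mutants 1, 2 and 3, against 5.66, 3.47, 3.16, 3.75 and 2.93 CPM in controls 1 to 5. All 3 mutants lay above all 5 controls, with Rar mutant 1 close to control 1. Adamts4 and Has2 were the 2 members whose Rar mutants all lay above all controls, against 2.68% of all genes. Adamts4 averaged 21.4 ± 20.04 CPM in Rar mutants and 3.79 ± 1.09 CPM in controls, a difference that edgeR put at 2.49 on the log2 scale (SE 0.50, adjusted p = 0.106) and at 1.38 without Rar mutant 3.

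Adamts9 had 46.7, 74.6 and 162 CPM in Rar mutants 1, 2 and 3, against 56.6, 33.4, 24.3, 30.9 and 32.3 CPM in controls 1 to 5. Rar mutants 2 and 3 lay above all controls, and Rar mutant 1 lay below control 1 and above the other 4. The log2 fold change was 1.41 (SE 0.37, adjusted p = 0.192 by edgeR), and 0.75 without Rar mutant 3.

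The 2 high mutants differed in which genes stood above the control median. In Rar mutant 3, all 8 members stood at least 2-fold above it, against 6.69% of all genes, from 3.29-fold for Cd44 to 318-fold for Tnfaip6. This library was the highest of the 10 for 14.8% of all genes. In Rar mutant 2, 6 of 8 stood at least 2-fold above the control median, against 4.69% of all genes, with Adamts1 at 24.01-fold and Tnfaip6 at 8.89-fold, while Has2 stood at 1.38-fold and Ptx3 at 0.641-fold. In Rar mutant 1 a single member did, Has2 at 2.67-fold, against 6.2% of all genes, and the median over the members was 1.73-fold there, 3.19-fold in Rar mutant 2 and 13.9-fold in Rar mutant 3. By the same rule control 1 had 2 members, Vcan at 4.38-fold and Adamts1 at 2.05-fold. Controls 3 and 4 had 1 each, and controls 2 and 5 had 0. Shares of all genes were not computed for the controls.

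Some ratios between members within a library, but not all, show the same contrast on the FPKM scale. The ratio of Tnfaip6 to Adamts1 was 0.0937, 0.0272 and 3.59 in Rar mutants 1, 2 and 3, against 0.0358 to 0.411 in controls. Rar mutant 3 lay above the control range and Rar mutant 2 below it. For Adamts1 over Adamts4 the ratio was 5.48, 40.8 and 3.44 in Rar mutants 1, 2 and 3, against 5.04 to 9.12 in controls. Rar mutant 2 was thus above the controls and Rar mutant 3 below them. Versican over its protease Adamts1 was 0.250 in Rar mutant 2 and 3.96 in Rar mutant 3, against 1.27 to 3.68 in controls. Tnfaip6 over Ptx3 did not separate the 2 high mutants, at 3.805 and 4.06 in Rar mutants 2 and 3. Both lay above the control range of 0.178 to 1.64. Tnfaip6 over Has2 was 27.1 and 61.0 in Rar mutants 2 and 3, against 3.02 to 34.6 in controls.

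**Figure D2:**
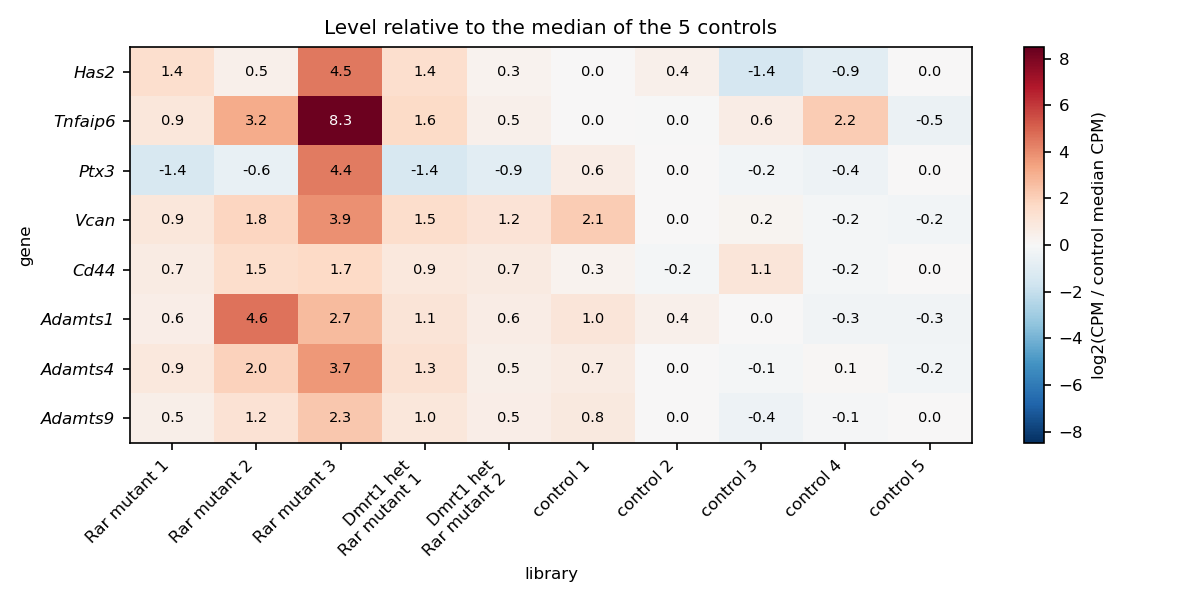
Heatmap of the log2 ratio of each member's CPM to the control median, with the 8 genes as rows and the 10 libraries as columns, the Rar mutants first and the controls last. Rar mutant 3 is high for all 8 genes, with Tnfaip6 at 318-fold, Rar mutant 2 is high for the 3 proteases, Tnfaip6, Cd44 and Vcan, and Rar mutants 1 and 2 are both low for Ptx3.

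As a description, log2 CPM of Adamts4 and Adamts9 followed each other over the 10 libraries with a Pearson r of 0.97, and of 0.93 over the 9 libraries without Rar mutant 3. Vcan followed Adamts9 with r of 0.95 over the 10 libraries and 0.89 over the 9. Without Rar mutant 3, all 7 pairs that include Ptx3 had a negative r, from -0.62 with Has2 to -0.15 with Vcan, and Tnfaip6 and Ptx3 had r of -0.46 without it and 0.78 with it. The other 21 pairs stayed positive without it, from 0.09 for Has2 and Tnfaip6 (0.81 over the 10 libraries) to the 0.93 of Adamts4 and Adamts9. Has2 kept an r of 0.69 with Adamts9, and Vcan one of 0.81 with Adamts4 and 0.60 with Cd44. The libraries share genotype groups, and the values over 10 libraries lean on 1 ovary.

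The fits that called members used fewer libraries or another tool. DESeq2 on the same counts called 4 of the 8 higher in Rar mutants, against 1.16% of genes it called higher. They were Has2 (log2 fold change 3.36, adjusted p = 0.00300), Adamts1 (3.14, adjusted p = 0.00435), Adamts4 (2.51, adjusted p = 0.000245) and Adamts9 (1.42, adjusted p = 0.0216). DESeq2 gave no adjusted p for Tnfaip6 and Ptx3, and gave 0.0616 for Cd44 and 0.243 for Vcan. With Rar mutant 1 left out, edgeR called 5 of the 8 higher, against 1.48% of genes, namely Has2, Tnfaip6, Adamts1, Adamts4 and Adamts9 with adjusted p of 0.0423, 0.0146, 0.00403, 0.00565 and 0.0292. With any other single library left out, edgeR called none of the 8. Within title numbers of 7800 and over, with 2 Rar mutants and 4 controls, edgeR called 4 of the 8 higher, against 0.602% of genes. These were Vcan (log2 fold change 3.25, adjusted p = 0.0428), Adamts1 (3.93, 0.0269), Adamts4 (3.12, 0.0268) and Adamts9 (1.97, 0.0317). Under 7800 there is 1 library each of Rar mutant and control, and no test was made there. Between those 2 libraries, given above, Has2, Tnfaip6, Cd44 and Adamts4 were higher in Rar mutant 1 than in control 1, and Ptx3, Vcan, Adamts1 and Adamts9 were lower.

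The authors' deposited table of Rar mutant against control lists 185 genes, where the count table holds 24306, and 3 of the 8 members are among them. On the log2 scale the authors' deposited table gives 1.53 for Adamts4 (SE 0.307, adjusted p = 0.000373), 1.20 for Adamts1 (SE 0.304, adjusted p = 0.0117) and 1.01 for Adamts9 (SE 0.286, adjusted p = 0.0378). The 3 proteases are listed there, and none of the 5 matrix genes. For Adamts4, Adamts1 and Adamts9 the edgeR values given above were larger, at 2.49, 3.14 and 1.41. The DESeq2 values given above for these 3 were larger than the authors' as well. Whether the authors' values were shrunk is not given in the sources used here, and the cause of the difference was not tested.

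**Figure D3:**
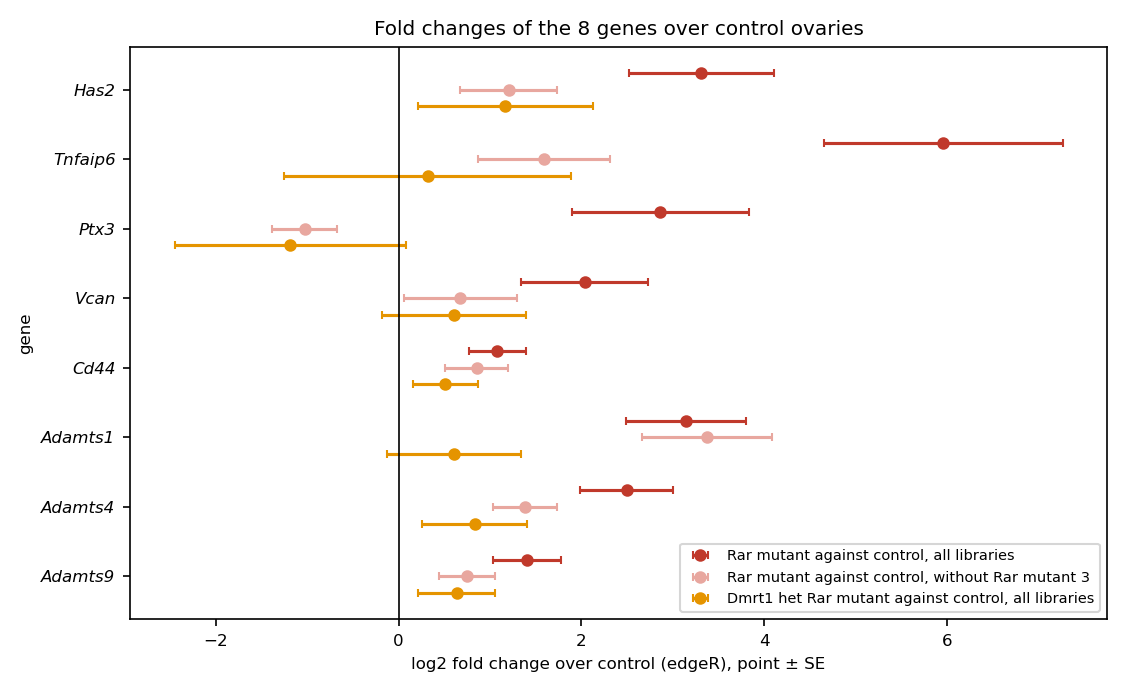
Log2 fold change over controls from edgeR (points, with SE as bars) for each of the 8 genes, in Rar mutants with all libraries, in Rar mutants without Rar mutant 3, and in Dmrt1 het Rar mutants. With all libraries the Rar mutant values run from 1.08 for Cd44 to 5.96 for Tnfaip6, without Rar mutant 3 that of Ptx3 is -1.03, and none of the points passes the adjusted threshold.

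In ovaries with the floxed Rar genes, Sf1-Cre and 1 floxed Dmrt1 allele, 7 of the 8 genes had positive log2 fold changes over controls. Dmrt1 het Rar mutant 1 had 5 of the 8 at least 2-fold above the control median, against 7.96% of all genes, with a median of 2.31-fold over the members, and Dmrt1 het Rar mutant 2 had 1 of the 8, against 7.3%, with a median of 1.43-fold. The edgeR test called 0 of the 8, against 4 of 20570 genes (0.0194%). At an unadjusted p of 0.05 it also called 0 of the 8, against 17.32% of all genes in either direction. DESeq2 called none of the 8. The median log2 fold change over the members was 0.61. Tnfaip6 had 1.85 and 0.836 CPM in Dmrt1 het Rar mutants 1 and 2, inside the control range of 0.441 to 2.76 CPM, and edgeR put it at 0.32 on the log2 scale (SE 1.57, adjusted p = 0.929). Has2 had 0.965 and 0.440 CPM, of which the first lay above all controls. Vcan had 338 and 274 CPM, Cd44 21.3 and 19.6 CPM and Adamts1 54.9 and 40.1 CPM. Adamts4 had 8.64 and 4.93 CPM and Adamts9 64.1 and 46.8 CPM. In Dmrt1 het Rar mutant 1, Has2 and the 3 proteases exceeded all controls, and in Dmrt1 het Rar mutant 2 no member did. Ptx3 had 1.34 and 1.85 CPM in these ovaries, both below all controls (2.65 to 5.37 CPM), as was so of 13.8% of all genes. Its log2 fold change was -1.18 (SE 1.27, adjusted p = 0.627 by edgeR). Ptx3 was thus below the control range in 4 of the 5 Cre-positive ovaries. The share of all genes was not computed for members above all controls in a single library, or for Ptx3 in 4 of the 5. Those counts are description only.

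Set against the Rar mutants, the Dmrt1 het Rar mutants had negative log2 fold changes for all 8 genes. The edgeR test called 0 of the 8 and 0 of 20570 genes (0%), while 3467 genes had an unadjusted p under 0.05. Of the members, Tnfaip6, Ptx3, Adamts1 and Adamts4 had an unadjusted p under 0.05 in that direction in edgeR, which is 4 of 8 against 9.29% of all genes. DESeq2 called 0 of the 8 and 626 genes in all. On the log2 scale edgeR gave -5.64 for Tnfaip6 (SE 1.92, adjusted p = 0.232), -4.04 for Ptx3 (SE 1.48, adjusted p = 0.245), -2.54 for Adamts1 (SE 0.90, adjusted p = 0.241) and -1.66 for Adamts4 (SE 0.67, adjusted p = 0.265). With Rar mutant 1 left out, Adamts1 alone passed (-3.05, adjusted p = 0.0478). With Rar mutant 3 left out, 6 of the 8 lay between -0.54 and -0.03, Tnfaip6 at -1.26 and Adamts1 at -2.76. Both Dmrt1 het Rar mutants carry title numbers under 7800, as Rar mutant 1 does, and only 1 Rar mutant can be compared with them inside that range. Among those 3 ovaries Vcan had 338 and 274 CPM in Dmrt1 het Rar mutants 1 and 2 and 230 CPM in Rar mutant 1.

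With both Rar-deleted groups pooled against controls, as the stated design of 2 genotypes with 5 replicates requires, all 8 log2 fold changes were positive. The edgeR test called 0 of the 8, against 21 of 18954 genes (0.111%), and 7 of 8 had an unadjusted p under 0.05, all but Ptx3, against 4.24% of genes in that direction. The pooled log2 fold change was largest for Tnfaip6 at 5.24 (SE 1.59, adjusted p = 0.451 by edgeR) and smallest for Cd44 at 0.88 (SE 0.29, adjusted p = 0.497). DESeq2 called 1 of the 8 higher, Adamts4 (2.05, adjusted p = 0.0177), against 0.261% of genes. This comparison shares its controls and mutants with those above.

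The genes of the same pathway were described through 8 lists with 98 genes in the table, of which 92 were tested. Of these, 51 had positive log2 fold changes in Rar mutants against controls, with a median of 0.11, and edgeR called 0 of them. At an unadjusted p of 0.05, edgeR had 22 of the 92 higher, against 5.61% of all genes, and 4 lower, against 3.84%. DESeq2 called 10 of the list genes higher, against 1.16% of all genes, and none lower. Of those 22, 6 were among the 13 follicle proteases and their inhibitors and 6 among the 16 signals that induce cumulus expansion.

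**Figure D4:**
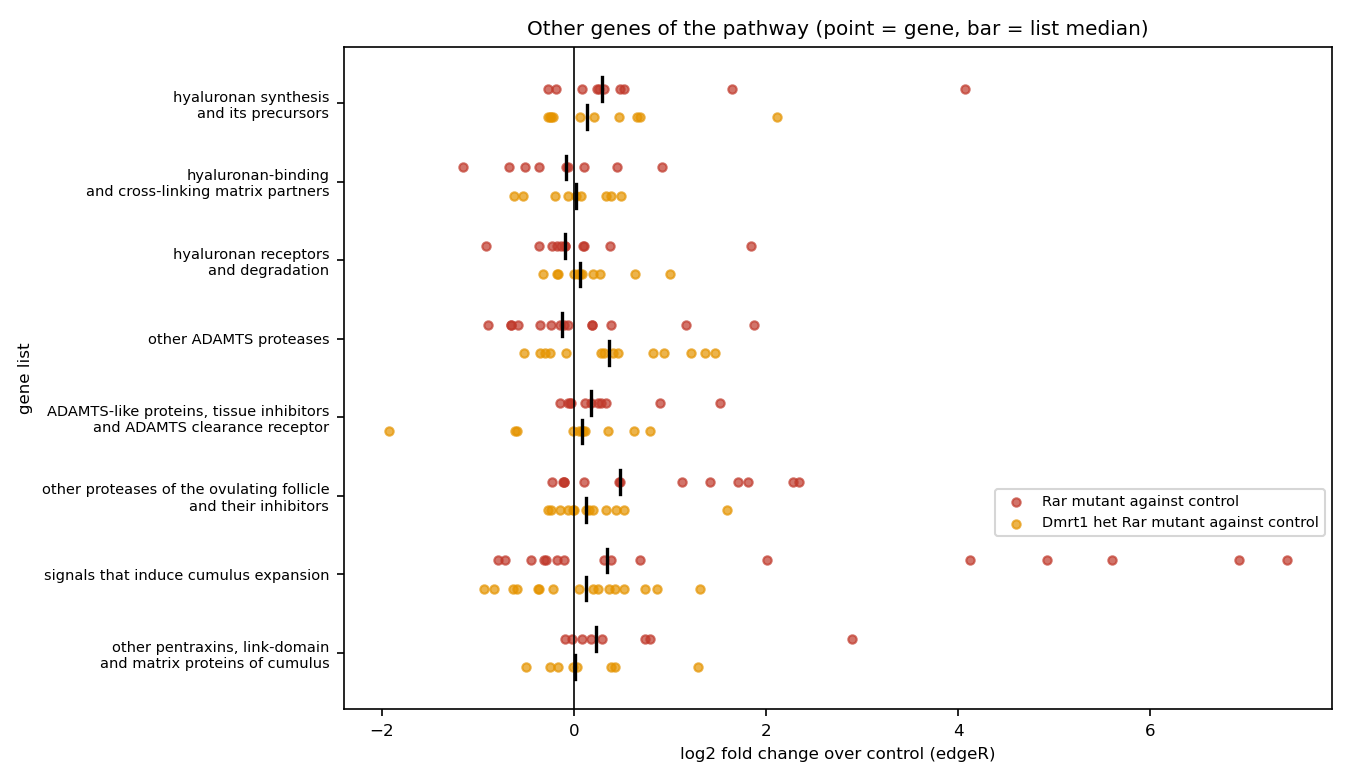
Log2 fold changes over controls from edgeR for every tested gene of the 8 pathway lists, in Rar mutants and in Dmrt1 het Rar mutants, with a point for each gene and a bar at each list median. In Rar mutants the medians lie between -0.12 for other ADAMTS proteases and 0.48 for the follicle proteases, and the points farthest to the right are Ptgs2 at 7.42 and Ereg at 6.92.

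Among the EGF-like factors and other inducers, Ereg (epiregulin) had 1.77, 10.4 and 554 CPM in Rar mutants 1, 2 and 3, against 0.677 to 2.83 CPM in controls, for which edgeR gave 6.92 on the log2 scale (SE 1.41, adjusted p = 0.106). Ptgs2, the inducible prostaglandin synthase, had 0.321, 4.06 and 208 CPM in Rar mutants 1, 2 and 3, against 0.120 to 0.732 CPM in controls (log2 fold change 7.42, SE 1.51, adjusted p = 0.106). Btc (betacellulin) had 2.65, 5.67 and 240 CPM in Rar mutants 1, 2 and 3, against 1.35 to 2.19 CPM in controls. Each was highest in Rar mutant 3 and next highest in Rar mutant 2, the order seen for Tnfaip6. In the Dmrt1 het Rar mutants, Ereg had 1.05 and 0.704 CPM and Ptgs2 1.34 and 0.704 CPM. Of the 16 tested genes of this list, 9 had positive log2 fold changes in Rar mutants against controls, with a median of 0.35. At an unadjusted p of 0.05, edgeR had 6 higher, against 5.61% of all genes, and 1 lower, against 3.84%. The lower one was Ptges at -0.45 (SE 0.17, adjusted p = 0.400 by edgeR). The receptor genes Fshr and Lhcgr stood at -0.71 and -0.79. DESeq2 called Runx1 and Il6 from this list.

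Around the synthesis of hyaluronan, 8 of 10 genes had positive log2 fold changes, and DESeq2 called Has1 and Ugdh. Ugdh, which makes the UDP-glucuronate that hyaluronan synthases use, had 74.8, 138 and 315 CPM in Rar mutants 1, 2 and 3, against 46.9 to 62.1 CPM in controls, so the groups did not overlap (log2 fold change 1.65, SE 0.35, adjusted p = 0.108 by edgeR). Has1, another hyaluronan synthase, had 0.442, 0.911 and 14.1 CPM in Rar mutants 1, 2 and 3, against 0.135 to 0.814 CPM in controls (4.07, SE 1.00, adjusted p = 0.162). Uap1, which makes the other sugar precursor, had 34.6, 43.6 and 70.1 CPM in Rar mutants 1, 2 and 3 (0.48, adjusted p = 0.519). Both precursor genes were highest in Rar mutant 3.

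The partners that bind and cross-link hyaluronan did not share the pattern of the members, with 3 of 9 positive and a median of -0.08. Hapln1, a link protein that ties versican to hyaluronan, had 1.81, 1.62 and 2.18 CPM in Rar mutants 1, 2 and 3, against 0.641 to 1.18 CPM in controls (0.92, SE 0.28, adjusted p = 0.271 by edgeR). Acan (aggrecan) stood at -1.15 on the log2 scale (SE 0.43, adjusted p = 0.404) and Itih2, a heavy chain that TSG-6 transfers, at -0.67 (adjusted p = 0.647). Of the receptors and degrading enzymes 4 of 11 were positive, led by Lyve1, the hyaluronan receptor of lymphatic vessels. Lyve1 had 13.6, 20.9 and 52.7 CPM in Rar mutants 1, 2 and 3, against 6.70 to 8.98 CPM in controls (1.85, SE 0.37, adjusted p = 0.106), and DESeq2 called it. Tmem2, a cell-surface hyaluronidase, had a log2 fold change of 0.38 (adjusted p = 0.518).

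Of the 14 other ADAMTS genes, 5 were positive, with a median of -0.12. Adamts3, a procollagen N-proteinase, had 2.41, 4.02 and 4.31 CPM in Rar mutants 1, 2 and 3, against 0.677 to 1.22 CPM in controls, for which edgeR gave 1.87 on the log2 scale (SE 0.28, adjusted p = 0.0557), and DESeq2 called it. Among the follicle proteases 9 of 13 were positive, and DESeq2 called Plau, Plaur, Mmp19 and Adam8. Mmp19 had 15.5, 40.6 and 13.3 CPM in Rar mutants 1, 2 and 3, against 4.78 to 9.33 CPM in controls, highest in Rar mutant 2 as Adamts1 was. Plau, the urokinase plasminogen activator, had 67.3, 154 and 821 CPM in Rar mutants 1, 2 and 3, against 63.7 to 74.6 CPM in controls. Of the inhibitors and ADAMTS-like genes 7 of 11 were positive, and Timp1, a tissue inhibitor of metalloproteinases, had 41.1, 484 and 253 CPM in Rar mutants 1, 2 and 3, against 32.0 to 199 CPM in controls (1.52, SE 0.70, adjusted p = 0.537). In the last list, of pentraxins and other matrix proteins of cumulus, 6 of 8 were positive and DESeq2 called none. Spp1 (osteopontin) had 39.5, 428 and 43.1 CPM in Rar mutants 1, 2 and 3, against 7.30 to 37.6 CPM in controls (2.90, SE 0.74, adjusted p = 0.183), and was, like Adamts1, highest in Rar mutant 2.

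Across all tested genes with a name, leaving out members and predicted genes (15563 compared), the 5 with the highest Pearson r to each member over the 10 libraries were listed, and the closest are named here. Dusp4, a MAP kinase phosphatase, was closest to both Vcan (r 0.98, and 0.96 over the 9 libraries without the highest) and Adamts9 (0.98 and 0.96). Pitrm1 was closest to Adamts4 (0.99 and 0.96). For Tnfaip6 it was Chgb (0.98 and 0.88), with Crem, a cAMP-responsive modulator, among the next 4 (0.97 and 0.85). For Ptx3 it was the immediate early gene Ier2 (0.98 and 0.82) and for Has2 it was Gcnt4 (0.96 and 0.88). Pfkfb4, a regulator of glycolysis, was closest to Cd44 (0.95 and 0.94). Adamts1 was closest to Traf3ip2 (0.97, and 0.92 without Rar mutant 2). These are descriptions over libraries that include the 2 high ovaries.

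Markers of ovarian cell types were all above 0 apart from 1 neutrophil gene in control 3. Granulosa markers, which include Fshr and Amh, summed to 5630, 3811 and 5695 CPM in Rar mutants 1, 2 and 3, against 5415 to 9785 CPM in controls, and 0 of the 12 had a positive log2 fold change (median -0.61, with 3 lower at an unadjusted p under 0.05 and none called by edgeR or DESeq2). Erythroid markers summed to 479, 1998 and 2690 CPM in Rar mutants 1, 2 and 3, against 295 to 1611 CPM in controls, so the 2 ovaries with the high members also had the most globin RNA, and 5 of 5 were positive. In Dmrt1 het Rar mutants 1 and 2 the granulosa sums were 8210 and 8322 CPM and the erythroid sums 371 and 595 CPM, inside the control ranges. Other sums lay outside them in both Dmrt1 het Rar mutants, with surface epithelium at 248 and 276 CPM against 386 to 660 CPM in controls, stromal markers at 1087 and 1150 CPM against 1273 to 2141 CPM, and neutrophil markers at 7.89 and 7.48 CPM against 2.81 to 6.59 CPM. Of the 10 surface epithelium genes, 8 were lower there at an unadjusted p under 0.05 in edgeR, against 17.32% of all genes in either direction. Among the 10, edgeR called none and DESeq2 called 4 lower, Krt7, Krt18, Krt19 and Msln. In one of the 2 ovaries each, oocyte (456 CPM), endothelial (260 CPM), smooth muscle (502 CPM) and theca sums (5731 CPM) also lay below the control range. Smooth muscle markers summed to 559, 1005 and 1076 CPM in Rar mutants 1, 2 and 3, inside the control range of 512 to 1093 CPM. Macrophage markers summed to 220, 247 and 158 CPM in Rar mutants 1, 2 and 3, against 138 to 260 CPM in controls, and neutrophil markers to 3.01, 7.29 and 3.54 CPM, against 2.81 to 6.59 CPM in controls. Corpus luteum markers summed to 2410, 798 and 1473 CPM in Rar mutants 1, 2 and 3, against 888 to 3356 CPM in controls. Oocyte markers summed to 250.8, 599 and 726 CPM in Rar mutants 1, 2 and 3, against 539 to 803 CPM in controls, so that Rar mutant 1 lay below the control range. Theca markers summed to 8767, 7180 and 5638 CPM in Rar mutants 1, 2 and 3, against 5757 to 7412 CPM in controls, and stromal markers to 2398, 2517 and 1433 CPM, against 1273 to 2141 CPM in controls. Endothelial markers summed to 396, 352 and 307 CPM in Rar mutants 1, 2 and 3, against 288 to 457 CPM in controls, and lymphocyte markers to 15.3, 9.73 and 9.65 CPM, against 7.90 to 17.2 CPM in controls. Surface epithelium markers summed to 359, 464 and 519 CPM in Rar mutants 1, 2 and 3, against 386 to 660 CPM in controls. The part of any of these in the members' values was not tested.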

How the data were processed

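PolyA RNA of whole ovaries was sequenced with a stranded kit, per the labels' protocols, and the submitters' processing notes name GRCm38, STAR 2.4.2a, Trimmomatic 0.32, DESeq2 1.12.3 and SAMtools 1.0. The counting tool is not given in the sources used here. The authors deposited raw counts for 24306 Ensembl genes and normalized FPKM values. The authors' deposited table holds, per the file headers, a Wald score, a p-value, a log2 fold change with its SE and a mean normalized signal, and is attached to the control and Rar mutant libraries in the labels. Counts were tested in R 4.3.3 with edgeR 4.0.16 (TMM, filterByExpr, robust quasi-likelihood, two-sided, Benjamini-Hochberg adjusted p under 0.05), checked on simulated data, in a 3-group fit of 20570 genes and a pooled fit of 18954. DESeq2 1.42.0 was an alternative. The SE of an edgeR fold change is its size over the square root of F, an error after a mean CPM is the SD, and log2 CPM for correlations had a prior count of 2. Members and lists were chosen with earlier results of these data known. From each list, called genes were to be named, or otherwise up to 3 genes with the smallest p in Rar mutants, and genes that the background calls for, as levels. Genes called by DESeq2 are named as such.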

Additional observations from a re-analysis of the deposited data

Results flagged for a closer look

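In the pooled group of 5 Rar-deleted ovaries, 1 library stood far from the other 4 for 7 of the 8 genes. Rar mutant 3 was that library for Has2 (7.90 CPM), Tnfaip6 (194 CPM), Ptx3 (75.1 CPM), Vcan (1811 CPM), Adamts4 (44.2 CPM) and Adamts9 (162 CPM). For Adamts1 it was Rar mutant 2 (619 CPM). Among the 5 controls, control 4 stood apart for Tnfaip6 (2.76 CPM), and control 1 for Vcan (528 CPM) and Adamts9 (56.6 CPM). Of the 16 groups examined, 8 genes in 2 groups each, 10 met the gap rule. For independent, normally distributed values about 1 of 20 groups would meet it by chance. That rate does not apply here, because the 16 groups share the same 10 libraries and the Rar-deleted group pools 2 genotypes.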

How the results depend on the processing

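As reported, edgeR called none of the 8 genes in the 4 comparisons. Rar mutants against controls had 2 genes called, and 372 by DESeq2 (4 of the 8), 85 with a term for the title number, 142 within title numbers of 7800 and over (4 of the 8) and 1 with only the groups compared. Dmrt1 het Rar mutants against controls had 4, and 329 by DESeq2, 1 with the title-number term and 0 with that term and Rar mutant 3 left out. The pooled comparison had 21, and 180 by DESeq2 (1 of the 8), 40 with the title-number term and 2 with the term and Rar mutant 3 left out. Within title numbers of 7800 and over it holds no Dmrt1 het Rar mutant. There it is the same fit as that of Rar mutants against controls, with the same 142 genes called (4 of the 8), and is no separate result. Dmrt1 het against Rar mutants had 0, and 626 by DESeq2. With Rar mutants 2 and 3 left out together, a setting chosen after seeing the data like the one with the term and Rar mutant 3, the counts were 1 for Rar mutants and 7 for the pooled comparison. DESeq2 size factors and either filter on low counts changed no call among the 8.

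Leaving out 1 library at a time gave 1 to 384 genes called for Rar mutants (0 to 5 of the 8), 0 to 364 for Dmrt1 het Rar mutants, 5 to 52 pooled and 0 to 335 for Dmrt1 het against Rar mutants (0 to 1 of the 8). The highest counts came without Rar mutant 1 (384 and 335) and without control 1 (364 and 52). For Rar mutants the count was 7 without control 2 and 1 without Rar mutant 3, control 3 or control 5. For Dmrt1 het Rar mutants it was 0 with the second of that group left out, 1 with the first left out, and 2 without Rar mutant 3, control 2, control 3 or control 5. Pooled, it was 5 to 11 without Rar mutant 2, either Dmrt1 het Rar mutant or any of controls 2 to 5. A library left alone in its group was assumed to vary like those of the other groups.

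With 1 library left out at a time, Ptx3 ran from -1.03 (without Rar mutant 3) to 3.42 in Rar mutants and from -1.10 (without Rar mutant 3) to 2.48 pooled, and Tnfaip6 from -0.36 (without Dmrt1 het Rar mutant 1) to 1.05 in Dmrt1 het Rar mutants. The title-number term put that Tnfaip6 value at 4.12, against 0.32 as reported. Ptx3 was also below 0 in Rar mutants without Rar mutants 2 and 3 (-1.42) and with the title-number term and Rar mutant 3 left out (-1.06), and pooled under the same 2 settings (-1.25 and -1.17). Vcan in Dmrt1 het Rar mutants was -0.10 with the title-number term and Rar mutant 3 left out. Dmrt1 het against Rar mutants without Rar mutants 2 and 3 gave 0.23 for Tnfaip6, 0.24 for Ptx3, 0.43 for Vcan, 0.13 for Cd44, 0.32 for Adamts1, 0.11 for Adamts4 and 0.27 for Adamts9. The cause was not tested.

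Replicate numbers are shared between groups, and the labels do not say that they pair the samples. Deviations of same-numbered Rar mutants and controls correlated at 0.43, 0.02 and 0.24. The 0.43 is of Rar mutant 1 and control 1, which both have title numbers under 7800. Differently numbered samples were not compared, so these values cannot decide whether the numbers pair the samples. A fit with the replicate number as a block called 2 genes for Rar mutants, 0 for Dmrt1 het Rar mutants, 0 pooled and 0 for Dmrt1 het against Rar mutants, with 0 of the 8 in each, and gave -0.31 for Ptx3 pooled and 2.402 for Tnfaip6 in Dmrt1 het Rar mutants. The 3 to 12 counts of Has2 in controls limit its precision.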
